A study of Mus musculus with 20 samples.

Results

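Hmgcs1, Sqle, Srebf2, Insig1, Idi1, Fdps and Lss are targets of the transcription factor SREBP2 that serve cholesterol synthesis and its control. They were chosen by symbol, because the supplement under study is sold for cholesterol, and all 7 were present among the 55822 genes of the count table and passed the filter on low counts. Their levels were compared in whole kidney of 8-week-old male C57BL/6J mice that had received phosphate-buffered saline (PBS, control) or puberulic acid, a tropolone compound made by some moulds, at 1 mg per day. Each mouse was dosed on 6 consecutive days and killed on day 7, after a day without dosing. The series describes 20 samples in 4 groups of 5, and the remaining groups received the supplement Choleste-Help at 1000 mg per day, from a lot labelled normal or a lot labelled toxic. The names of 10 columns of the count table do not show which lot they hold, so the lots are not analysed here. Doses were oral according to the design text, while the protocol also allows for intraperitoneal injection, and the route of each mouse is not stated. They do not say in words that each numbered sample is a separate mouse, so p-values measure the spread between these samples, which may be partly technical.

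Cells build cholesterol from acetyl-CoA through mevalonate, the isoprenoid farnesyl diphosphate and squalene, which is oxidised, closed to lanosterol and trimmed to cholesterol. When sterols in the endoplasmic reticulum run low, SCAP escorts SREBP2 to the Golgi, where a pair of proteases release its active part, and it then raises the genes of cholesterol synthesis and uptake. When sterols are ample, INSIG proteins hold SCAP and SREBP2 back, and oxysterols switch on LXR, which raises exporters of cholesterol. Insig1 and Srebf2 are themselves SREBP2 targets, so the pathway carries its own feedback.

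The promoters are shown because SREBP2 binds its targets near the start of transcription, together with the factor NF-Y. RefSeq (build GRCm38.p6) held a start for 5 of the 7 members, all but Sqle and Fdps. The 250 bases before the start are printed 5′ to 3′ for the 3 members that fell with puberulic acid and for Srebf2, which is not among them. Capitals mark the sterol regulatory element letters TCACNCCAC or, without their last base, TCACNCCA, and the NF-Y letters CCAAT, which read ATTGG on the other strand.
Hmgcs1 (chr13:119690101-119690350, + strand): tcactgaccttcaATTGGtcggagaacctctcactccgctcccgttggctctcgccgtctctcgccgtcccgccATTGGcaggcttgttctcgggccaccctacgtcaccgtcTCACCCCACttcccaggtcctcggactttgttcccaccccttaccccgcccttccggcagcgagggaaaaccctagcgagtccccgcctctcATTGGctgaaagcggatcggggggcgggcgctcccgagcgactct
Idi1 (chr13:8885356-8885605, + strand): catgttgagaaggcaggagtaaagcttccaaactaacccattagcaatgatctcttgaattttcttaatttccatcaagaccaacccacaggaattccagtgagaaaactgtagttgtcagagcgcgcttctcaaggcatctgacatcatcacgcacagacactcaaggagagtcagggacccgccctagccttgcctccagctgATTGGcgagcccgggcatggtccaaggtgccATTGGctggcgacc
Insig1 (chr5:28071162-28071411, + strand): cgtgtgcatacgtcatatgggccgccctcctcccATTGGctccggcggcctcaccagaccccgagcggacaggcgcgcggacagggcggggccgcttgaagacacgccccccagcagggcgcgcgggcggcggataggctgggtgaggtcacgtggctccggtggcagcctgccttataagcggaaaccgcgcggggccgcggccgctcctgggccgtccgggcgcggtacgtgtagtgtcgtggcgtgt
Srebf2 (chr15:82147019-82147268, + strand): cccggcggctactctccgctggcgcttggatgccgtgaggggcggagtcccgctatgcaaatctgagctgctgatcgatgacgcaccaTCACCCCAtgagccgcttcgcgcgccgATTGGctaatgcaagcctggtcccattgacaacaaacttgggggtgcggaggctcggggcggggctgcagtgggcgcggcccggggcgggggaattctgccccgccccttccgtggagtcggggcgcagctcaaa
Both strands were searched, and no base was shared by matches of different motifs apart from the shorter sterol letters, which lie inside the longer ones. Hmgcs1 was the 1 member of the 5 with the full sterol letters, beginning 137 bases before the start and 39 bases from the nearest NF-Y match. They occur in 1.05% of 32851 RefSeq promoters of this length and in the promoter of no enzyme gene among 15 of the other sterol synthesis genes that had an entry. Srebf2 held the shorter form, beginning 162 bases before the start, which 3.67% of promoters and 1 of the 15 other synthesis genes hold. All 5 promoters held the NF-Y letters, against 33.8% of all promoters and 13 of the 15 other synthesis genes. All 5 also held the GC box letters GGGCGG, against 32.7% of all promoters and 12 of the 15. A gene with several promoter entries was counted if any entry matched, while the percentages count each entry, so these shares are in unlike units. A match is a description of these letters and not evidence of binding, and their absence says only that they are not in this window.

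Levels are given as CPM, a library's counts divided by its total scaled by a TMM factor (trimmed mean of M-values) and set on the usual common scale. Total estimated counts ran from 18409940 to 24705953 per library, and the members had 239 to 11665 counts in every library. Mitochondrially encoded transcripts made up 18.8% to 22.2% of control libraries and 10.5% to 13.8% of treated ones. TMM factors ranged over 0.827 to 0.848 for control libraries and 1.17 to 1.26 for treated ones, so the choice of scaling matters. Under scaling by total counts alone, the median log2 fold change of all 16266 genes tested moved from 0.05 to 0.56. Changes below are relative to TMM scaling, and values with total counts are given where they alter a direction or a call.

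Kidney markers checked the labelled tissue. The summed level of 10 proximal tubule markers ran from 36462 to 48871 CPM in controls and from 5497 to 7532 CPM with puberulic acid. Kap was the largest part of the sum, and all 10 were lower. In whole tissue, fewer cells of a type and less RNA per cell cannot be told apart. The sum of 7 injured tubule markers ran from 761 to 1372 CPM in controls and from 14316 to 24374 CPM with puberulic acid. Spp1 was the largest part of it, and all 7, Havcr1 and Krt20 among them, were called higher. Sums for 9 distal markers (loop, distal tubule, collecting duct) were 4563 to 6561 and 3371 to 6808 CPM, with Umod the largest part, and 7 of the 9 were called lower (4 with total counts), with a median log2 fold change of -1.20. Sums for 8 podocyte and endothelium markers were 364 to 689.9 and 162 to 575 CPM. Sums for 9 macrophage and leukocyte markers were 74.8 to 171 and 142 to 449 CPM, and for 6 fibroblast markers 99.2 to 160.4 and 471 to 1806 CPM. The part of these shifts in the members' results was not tested.

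A pair of puberulic acid libraries stood apart. Replicate 1 had the highest proximal tubule sum of its group, at 7532 CPM against 5497 to 5793 CPM in the other 4. Replicate 3 carried transcripts of fat and of the adrenal gland, an organ that lies on the kidney and makes steroids from cholesterol. Its level of the adipocyte gene Cfd was 130.1 CPM against 0 to 1.75 CPM in the other 4, of Adipoq 20.3 CPM against 0 to 0.57 CPM, and of the adrenal gene Star 30.0 CPM against 1.34 to 3.12 CPM. Adipoq was at 0 in all 5 controls. The hepatocyte, adipocyte and adrenal markers together, 9 genes of which Ttr was at 55.8 to 177 CPM in controls, summed to 229 CPM in replicate 3, to 22.2 to 31.1 CPM in the other puberulic acid libraries and to 64.3 to 184 CPM in controls.

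Of the 7 members, 3 fell with puberulic acid, 1 rose and 3 did not pass the test. Hmgcs1 and Idi1, enzymes on the way from acetyl-CoA to isoprenoids, fell 3.86-fold and 3.11-fold, and the SREBP2 retention factor Insig1 fell 1.78-fold. Fdps, whose product makes farnesyl diphosphate, rose 1.90-fold. Sqle, Lss and Srebf2 had log2 fold changes between 0.10 and 0.24 that missed the threshold. The test was the quasi-likelihood test of edgeR, adjusted by Benjamini-Hochberg over all 16266 genes, and a gene was called at an adjusted p under 0.05. Of all genes tested, 65.3% were called, 34.2% higher and 31.1% lower, so calls for 4 of 7 members are a share near that of all genes. Of the calls, 52.4% were higher with TMM and 78.4% with total counts. The median log2 fold change of the 7 was 0.10, against 0.05 for all genes. With total counts, 4 members were called higher and 2 lower, where 72.0% of all genes were called, 56.4% higher and 15.5% lower.

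**Figure D1:**
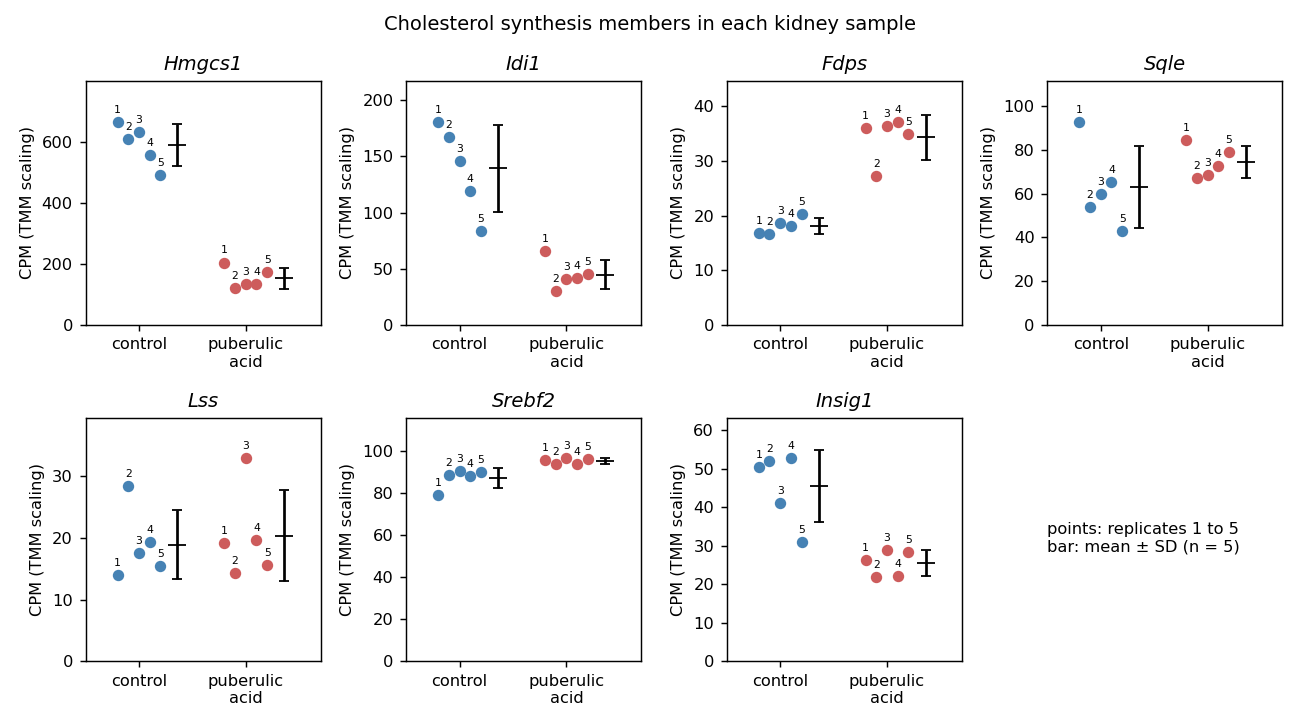
CPM of each member (vertical axes, linear from 0) in control and puberulic acid kidneys, with points for replicates 1 to 5 and bars for the mean ± SD. Hmgcs1, Idi1 and Insig1 are lower and Fdps higher in all 5 puberulic acid samples than in any control, Srebf2 is separated by a narrow margin, and Sqle and Lss overlap.

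The regulators come first. Srebf2 (ENSMUSG00000022463), which encodes SREBP2, was at 79.1, 88.3, 90.3, 87.9 and 89.8 CPM in control replicates 1 to 5 and at 95.4, 93.8, 96.4, 93.7 and 96.2 CPM in puberulic acid replicates 1 to 5. All 5 puberulic acid values lay above the highest control, by a small margin, with means of 87.1 ± 4.58 and 95.1 ± 1.29 CPM (SD, n = 5 each). The log2 fold change was 0.13 ± 0.07 (SE, edgeR adjusted p = 0.107) and did not pass the test. It passed with upper-quartile scaling (log2 fold change 0.22, edgeR adjusted p = 0.0105) and with total counts (0.64, edgeR adjusted p = 7.64e-06). Separated groups like these, with no CPM value shared between them, were seen for 5 of the 7 members and for 50.1% of all genes tested (26.1% higher and 24.0% lower).

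Insig1 (ENSMUSG00000045294), which retains SCAP and SREBP2 in the endoplasmic reticulum, was at 50.4, 52.1, 41.1, 52.7 and 30.9 CPM in the controls and at 26.4, 22.0, 28.9, 22.2 and 28.3 CPM with puberulic acid. The groups did not overlap, although control replicate 5 lay only just above the highest treated sample. Insig1 fell from 45.4 ± 9.38 to 25.5 ± 3.31 CPM (SD, n = 5 each), a log2 fold change of -0.83 ± 0.15 (SE, edgeR adjusted p = 0.00041). With total counts its log2 fold change was -0.32 (edgeR adjusted p = 0.081), so this call depended on the scaling. Its paralog Insig2, which does the same task and is not a classic SREBP2 target, was at 38.1 ± 5.48 and 43.9 ± 9.79 CPM (SD, n = 5 each; log2 fold change 0.21, edgeR adjusted p = 0.258), and was called higher with total counts (0.72, edgeR adjusted p = 0.00186).

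Hmgcs1 and Idi1 had the largest falls of the 7 members. Hmgcs1 (ENSMUSG00000093930), the cytosolic HMG-CoA synthase of the mevalonate pathway, was at 666, 608, 633, 555 and 490.2 CPM in the controls and at 204, 121, 135, 133 and 172 CPM with puberulic acid. The lowest control lay far above the highest treated sample, and puberulic acid replicate 1 was the highest of its group. The mean went from 590.3 ± 69.1 to 153 ± 34.4 CPM (SD, n = 5 each), a log2 fold change of -1.95 ± 0.15 (SE, edgeR adjusted p = 5.69e-07).

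Idi1 (ENSMUSG00000058258), which converts isopentenyl to dimethylallyl diphosphate, was at 181, 167, 146, 119 and 83.4 CPM in the controls and at 65.5, 30.2, 41.0, 41.8 and 45.2 CPM with puberulic acid. Controls spread widely, from 83.4 to 181 CPM, and still lay above every treated sample. The log2 fold change was -1.64 ± 0.23 (SE, edgeR adjusted p = 6.08e-05). Its near copy Idi2, which did not pass the filter on low counts, averaged 0.103 and 0.171 CPM in control and treated kidneys, and how reads shared by the pair were divided is not stated. With total counts Hmgcs1 and Idi1 stayed lower, at log2 fold changes of -1.44 and -1.13.

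Fdps (ENSMUSG00000059743), the farnesyl diphosphate synthase that follows Idi1 in the pathway, moved the other way. It was at 16.8, 16.7, 18.6, 18.0 and 20.2 CPM in the controls and at 36.0, 27.2, 36.4, 37.2 and 34.9 CPM with puberulic acid. No treated sample overlapped the controls, and replicate 2 was the lowest of the treated samples. Fdps rose from 18.1 ± 1.44 to 34.3 ± 4.09 CPM (SD, n = 5 each), a log2 fold change of 0.93 ± 0.10 (SE, edgeR adjusted p = 9.47e-06).

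Sqle (ENSMUSG00000022351), squalene epoxidase, was at 92.9, 53.7, 59.6, 65.1 and 42.9 CPM in the controls and at 84.7, 67.3, 68.7, 72.8 and 78.8 CPM with puberulic acid. Control replicate 1 was the highest of all 10 samples, and the treated samples were otherwise above the controls. Without that replicate the log2 fold change was 0.42 and passed the test (edgeR adjusted p = 0.0121), against 0.24 ± 0.17 (SE, edgeR adjusted p = 0.228) with it. With total counts Sqle was called higher (log2 fold change 0.76, edgeR adjusted p = 0.0018).

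Lss (ENSMUSG00000033105), lanosterol synthase, was at 14.0, 28.4, 17.5, 19.3 and 15.5 CPM in the controls and at 19.2, 14.3, 32.9, 19.7 and 15.6 CPM with puberulic acid. The groups covered the same range, and the highest value was in puberulic acid replicate 3, the library with fat and adrenal transcripts. The log2 fold change was 0.10 ± 0.24 (SE, edgeR adjusted p = 0.734), and -0.15 (edgeR adjusted p = 0.539) without that replicate. With total counts Lss was called higher (log2 fold change 0.61, edgeR adjusted p = 0.04).

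**Figure D2:**
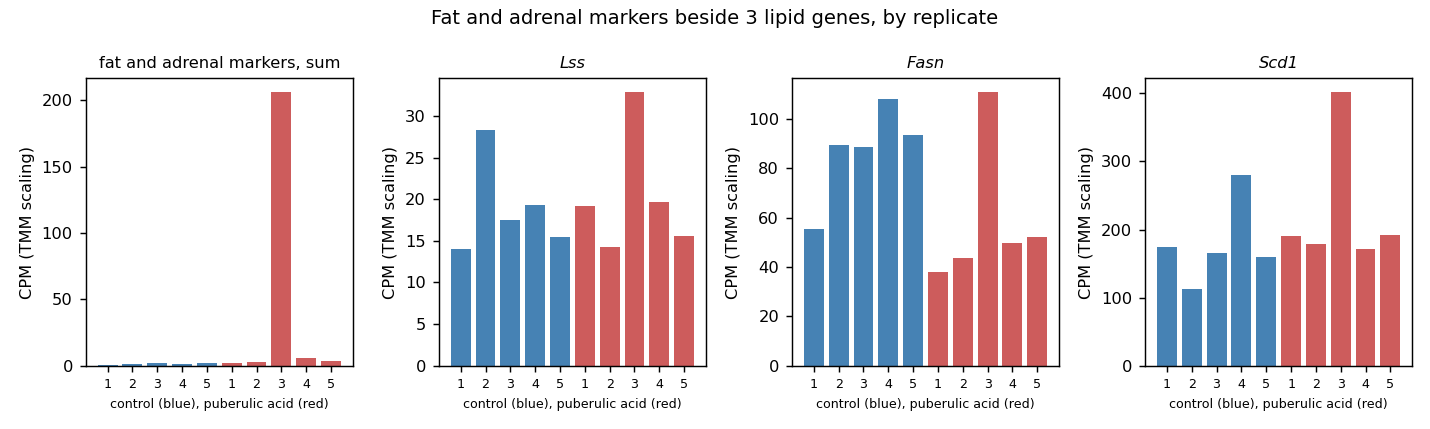
Summed CPM of 6 fat and adrenal markers (Adipoq, Plin1, Cfd, Cyp11b1, Cyp11a1, Star) and CPM of Lss, Fasn and Scd1 (vertical axes, linear from 0) in control and puberulic acid replicates 1 to 5, 1 bar per library. Puberulic acid replicate 3 holds 206 CPM of the markers, against 0.63 to 5.46 CPM elsewhere, and the highest value of each of the 3 genes.

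Ratios between members within a library do not depend on how libraries are scaled. Set against the mean log2 CPM of the 7 members in its own library, Hmgcs1 went from 3.13 ± 0.09 to 1.59 ± 0.21 (SD, n = 5 each) and Idi1 from 1.00 ± 0.29 to -0.20 ± 0.25 (SD, n = 5 each). Fdps went the other way on the same scale, from -1.90 ± 0.28 to -0.55 ± 0.11 (SD, n = 5 each). Insig1 differed by -0.39 and Srebf2 by 0.56, and for these 5 members the groups did not overlap. Sqle differed by 0.71 and Lss by 0.51, with overlapping ranges. These ratios are descriptions with no test, and they show that the balance among the members shifted whichever scaling is used.

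**Figure D3:**
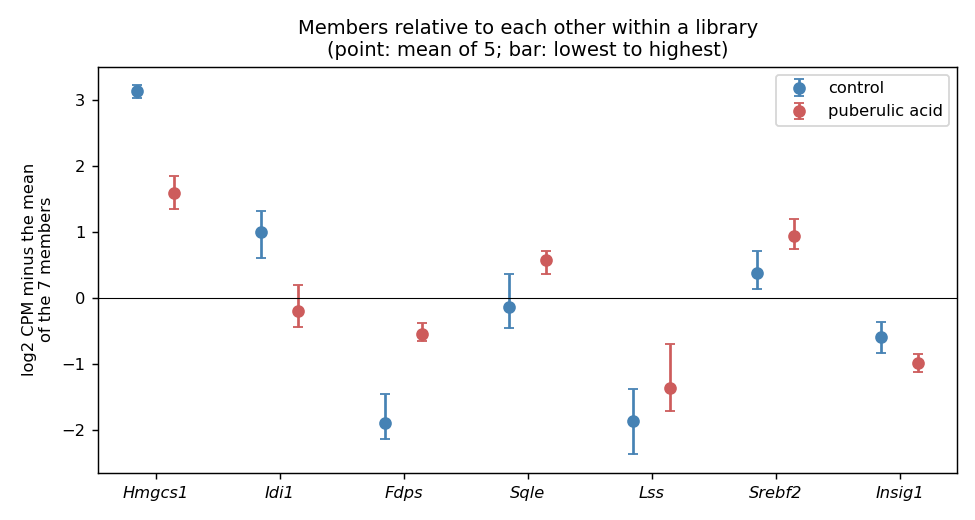
Log2 CPM of each member minus the mean of the 7 members in the same library (vertical axis, log2 units), with the mean of 5 libraries as a point and the lowest to highest as a bar. Hmgcs1, Idi1 and Insig1 drop relative to the other members, and Fdps and Srebf2 rise, with no overlap between the groups.

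Variation among samples of a group was shared by some members and not by others. After each group's mean was removed, the 21 pairs of members had Pearson correlations of -0.77 to 0.89 over the 10 samples. The 6 pairs among Hmgcs1, Idi1, Insig1 and Sqle, grouped here because their values were the highest, had 0.50 to 0.89, and the other 15 had -0.77 to 0.44. Each point is a library, so all genes of a point share its depth and scaling, and no p is attached. Control replicate 5 was the lowest control for these 4 genes. It also had the lowest proximal tubule sum of the controls, 36462 CPM against 43019 to 48871 CPM. Kap, the largest part of that sum, was at 20070.3 CPM in that library against 30415 to 31268 CPM in the other controls. Slc22a6 and Acsm2 were also at their lowest control value there, while Slc34a1, Slc5a2, Slc22a8, Miox and Cubn were at their highest. Puberulic acid replicate 1 was the highest treated sample for Hmgcs1, Idi1 and Sqle and had the highest proximal tubule sum of its group. Whether the tubule markers bear on this was not tested. Among 11599 other genes at 5 CPM or more, those most like the mean within-group profile of the 7 members over these 10 samples were Cbr4, Cpq, Dhdh, Cnot2 and Txndc15, with Pearson correlations of 0.933 to 0.938. Their own log2 fold changes ran from -2.08 for Cpq to 0.36 for Cnot2.

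The other enzymes of sterol synthesis also moved in both directions. Of 18 such genes 17 were tested, of which 8 were called lower, 2 higher and 7 not called, against 31.1% lower and 34.2% higher among all genes. The median log2 fold change was -0.27 against 0.05. With total counts 6 were lower and 7 higher, where 15.5% and 56.4% of all genes were. The median then turned to 0.25, against 0.56 for all genes. The largest falls were those of Cyp51, the lanosterol demethylase (log2 fold change -2.25), of Tm7sf2, a sterol reductase (-2.18), and of Mvd, which makes isopentenyl diphosphate (-1.88). Cyp51 went from 311 ± 48.5 to 65.5 ± 33.8 CPM (SD, n = 5 each; edgeR adjusted p = 2.43e-05), and puberulic acid replicate 1 at 124 CPM stood above the other treated samples at 37.4 to 62.0 CPM. The other 5 lower genes, named here after their values were seen, were Acat2 (log2 fold change -1.72), Ebp (-1.70), Nsdhl (-1.49), Sc5d (-0.55) and Lbr (-0.43). Sc5d and Lbr were not called with total counts, which gave -0.03 for Sc5d and turned Lbr to 0.09. Msmo1, the sterol methyl oxidase, rose from 25.9 ± 2.86 to 39.8 ± 1.64 CPM (SD, n = 5 each; log2 fold change 0.62 ± 0.09, SE, edgeR adjusted p = 5.76e-05). Ggps1, which extends farnesyl to geranylgeranyl diphosphate on a branch off the sterol path, was called higher (log2 fold change 0.35, edgeR adjusted p = 0.0259). The counts above include it. Its call was lost without control replicate 2, 3, 4 or 5 and without puberulic acid replicate 1, 3 or 4.

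Fdft1, squalene synthase, and Dhcr7, which acts at a last step, did not pass the test. Fdft1 had a log2 fold change of 0.20 (edgeR adjusted p = 0.124) and Dhcr7 of -0.27 (edgeR adjusted p = 0.102). Dhcr7 was called lower without control replicate 1 (-0.35), without puberulic acid replicate 1 (-0.35) and without puberulic acid replicate 5 (-0.36), and Fdft1 was called higher without control replicate 5 (0.25). Fdft1 was also called higher with upper-quartile scaling (0.29, edgeR adjusted p = 0.0288) and with total counts (0.70, edgeR adjusted p = 7.42e-05), and the sign of Dhcr7 turned with total counts, to 0.25, without a call. Over members and other enzymes together, 22 synthesis genes were tested, of which 10 were lower and 3 higher with TMM, where 31.1% and 34.2% of all genes were. With total counts 8 were lower and 10 higher, where 15.5% and 56.4% of all genes were.

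**Figure D4:**
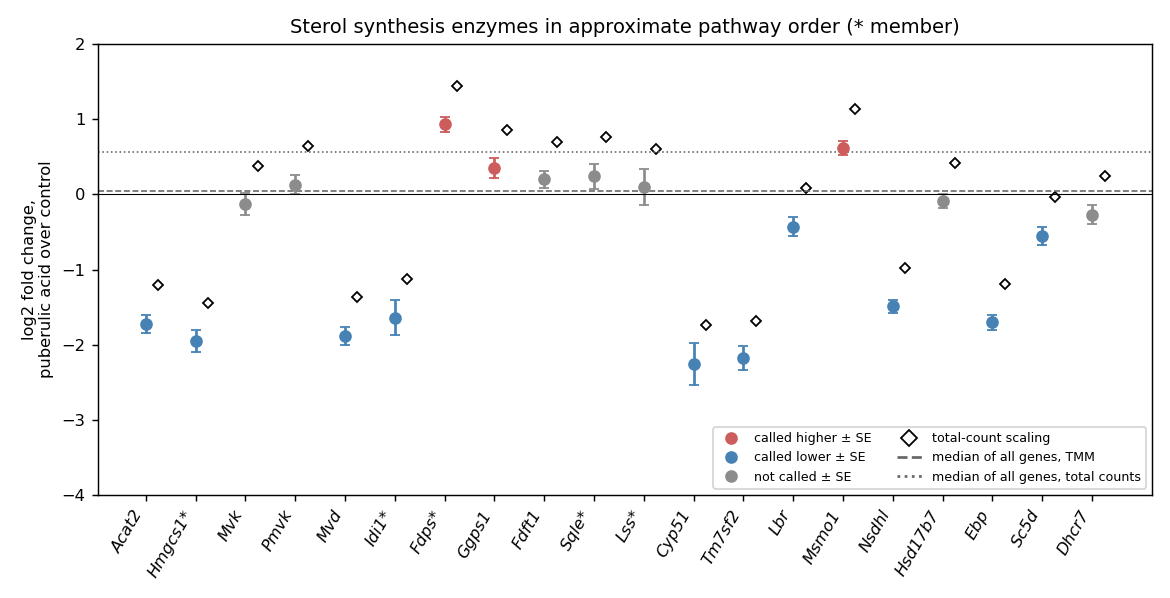
Log2 fold change of puberulic acid over control (vertical axis) for 20 enzymes in approximate pathway order, with Ggps1 on a branch off the sterol path. Circles show TMM scaling ± SE coloured by call, diamonds total counts and lines the median of all genes under each scaling. Acat2, Hmgcs1, Mvd, Idi1, Cyp51, Tm7sf2, Nsdhl and Ebp lie below both lines under either scaling, as does Sc5d, by a small margin with total counts. Mvk, Pmvk, Fdft1, Sqle and Lss lie near the median.

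Of 8 tested genes of the SREBP machinery, which process or hold back SREBP, 4 were called lower and 1 higher, with a median log2 fold change of -0.28. Among all genes 31.1% were lower and 34.2% higher, so the share called in either direction is near the 65.3% of all genes. With total counts 1 was lower and 4 higher, with a median of 0.23, where 15.5% and 56.4% of all genes were. Mbtps2, the site-2 protease of the Golgi, rose from 13.7 ± 1.88 to 29.0 ± 3.08 CPM (SD, n = 5 each; log2 fold change 1.08, edgeR adjusted p = 7.38e-06). Its partner Mbtps1, the site-1 protease, fell by 0.42 on the log2 scale (edgeR adjusted p = 0.00414), and Scap, the escort of SREBP, fell by 0.62 (edgeR adjusted p = 0.00123). Neither fall was called with total counts, which gave 0.09 and -0.11. Srebf1, the gene of the related factor SREBP1, had a log2 fold change of -0.08 (edgeR adjusted p = 0.641), whose sign was positive with upper-quartile scaling (0.02) and with total counts (0.43, edgeR adjusted p = 0.0262).

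Of 15 tested genes of uptake and intracellular transport, 8 were called higher and 4 lower, with a median log2 fold change of 0.38, against 34.2% higher and 31.1% lower among all genes. With total counts 11 were higher and 1 lower, where 56.4% and 15.5% of all genes were. Scarb1, the HDL receptor, rose 2.13-fold (edgeR adjusted p = 6.97e-06). Lrp1, a large endocytic receptor that macrophages and fibroblasts also carry, rose 2.04-fold (edgeR adjusted p = 0.0085), with overlapping ranges. Lipa, the lysosomal lipase that frees cholesterol from lipoproteins taken up, fell 2.51-fold (edgeR adjusted p = 1.38e-05). Stard4, a sterol carrier and SREBP2 target, fell by 0.57 on the log2 scale (edgeR adjusted p = 0.0121), and Osbp, a sterol transfer protein, fell by 0.36 (edgeR adjusted p = 0.00659). Neither was called with total counts, which gave -0.06 for Stard4 and 0.15 for Osbp.

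Genes of efflux, oxysterols and esterification moved in both directions. Of 14 tested, 6 were called higher and 7 lower, with a median log2 fold change of 0.07, against 34.2% higher and 31.1% lower among all genes. With total counts 7 were higher and 4 lower, against 56.4% and 15.5%, with a median of 0.58, near the 0.56 of all genes. The LXR targets Abca1 and Abcg1, exporters of cholesterol, rose 2.20-fold and 3.01-fold (edgeR adjusted p = 7.11e-06 and 3.73e-05), while Nr1h3, the gene of LXR alpha, fell 2.22-fold (edgeR adjusted p = 0.000112). Ch25h, which makes 25-hydroxycholesterol, was at 0.779 to 2.11 CPM in controls and at 5.64, 14.6, 21.1, 41.8 and 24.6 CPM with puberulic acid. Its log2 fold change of 4.31 ± 0.52 (SE, edgeR adjusted p = 1.76e-05) was the largest rise of any gene tested in the members' list and the 6 related lists. Cyp7b1, an oxysterol hydroxylase, had the largest fall among them, from 275 ± 44.8 to 24.6 ± 2.85 CPM (SD, n = 5 each; log2 fold change -3.48, edgeR adjusted p = 4.75e-09). Cyp27a1, which makes 27-hydroxycholesterol, fell 3.66-fold (edgeR adjusted p = 9.17e-08). Soat1, which esterifies cholesterol, was called higher (log2 fold change 0.55, edgeR adjusted p = 0.0178), a call lost without puberulic acid replicate 4 or 5. Macrophages also express Abca1, Abcg1 and Ch25h. The summed macrophage and leukocyte markers, 74.8 to 171 CPM in controls, were 264 to 449 CPM in puberulic acid replicates 2 to 5 and 142 CPM in replicate 1, and 4 of the 7 tested markers were called higher by edgeR. In replicate 1, of the 9 markers, Cd68, Itgam and Ptprc lay above all controls (Cd68 at 32.7 CPM against 1.74 to 4.34 CPM), Csf1r and Cd79a lay below all controls (Csf1r at 44.5 CPM against 46.6 to 73.6 CPM), and the other 4 lay inside the control range. The same library had the highest Abca1 (49.4 CPM) and Abcg1 (28.8 CPM) and the lowest Ch25h of the treated group. The part of these markers in the rises of Abca1, Abcg1 and Ch25h was not tested.

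Fatty acid synthesis genes, which SREBP1 controls, were 1 higher and 5 lower of 11 tested, with a median log2 fold change of -0.56, against 34.2% higher and 31.1% lower among all genes. With total counts 5 were higher and 5 lower, against 56.4% and 15.5% of all genes, with a median of -0.05 against 0.56. Acss2, which makes acetyl-CoA from acetate, fell 3.80-fold (edgeR adjusted p = 1.56e-08), the desaturase Fads2 fell 4.39-fold (edgeR adjusted p = 6.25e-08) and Me1, malic enzyme, fell 2.73-fold (edgeR adjusted p = 2.29e-06). Fasn, fatty acid synthase, was at 55.3 to 108.0 CPM in controls and at 37.9, 43.8, 111, 49.8 and 52.2 CPM with puberulic acid. The value of 111 CPM was in replicate 3, the library with fat transcripts. The log2 fold change of Fasn was -0.56 (edgeR adjusted p = 0.0948), and -0.93 (edgeR adjusted p = 0.000831) without that replicate. Without control replicate 1, the lowest control, it was -0.70 and also passed the test (edgeR adjusted p = 0.0411). Scd1, the main stearoyl-CoA desaturase, had a log2 fold change of 0.34 (edgeR adjusted p = 0.289) and of 0.02 (edgeR adjusted p = 0.929) without replicate 3, in which it stood at 402 CPM against 171 to 192 CPM in the other treated samples. With total counts and all samples Scd1 was called higher (0.85, edgeR adjusted p = 0.0152). The elongase Elovl6 was called higher (log2 fold change 0.52, edgeR adjusted p = 0.0222), a call that was lost without control replicate 2 or 4 and without puberulic acid replicate 1, 2 or 3.

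**Figure D5:**
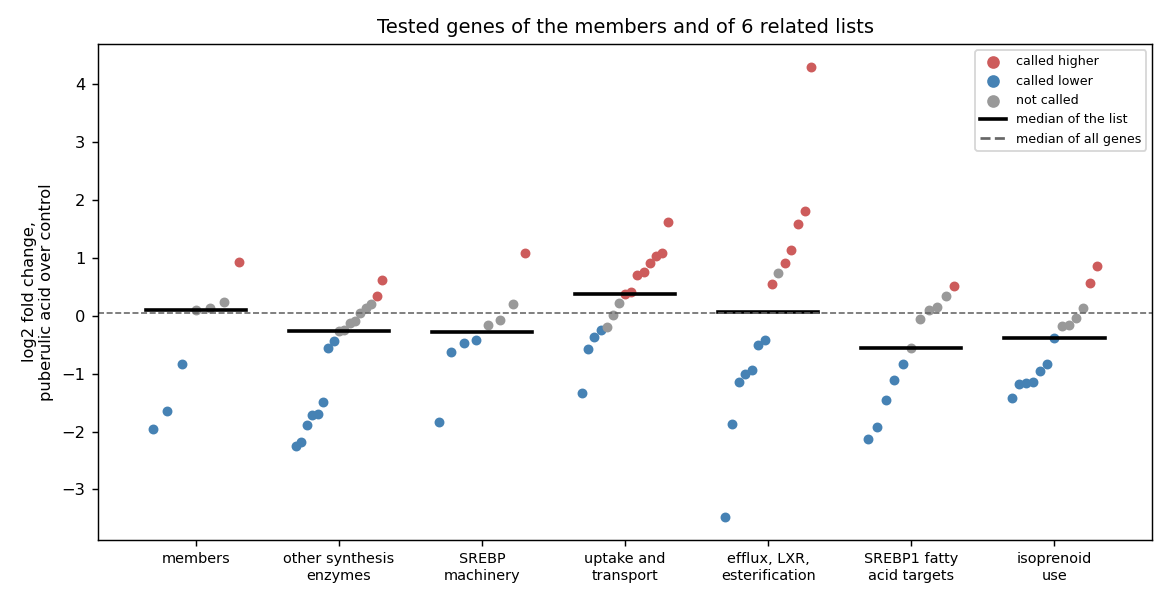
Log2 fold change of puberulic acid over control (vertical axis) for each tested gene of the members and of 6 related lists, with points coloured by call, black bars for the median of each list and a dashed line for the median of all genes, 0.05. Medians run from -0.56 for the fatty acid list to 0.38 for uptake and transport, and calls in both directions occur in every list.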

How the data were processed

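RNA of whole kidney was made into directional poly(A) libraries, per the labels' protocols. The deposited table holds estimated counts per gene, and per the submitters' processing notes fastp 0.22.0, FastQC 0.12.1, MultiQC 1.28, Salmon 1.10.3, DESeq2 and the build GRCm39 were used. The role of each tool, the gene annotation, the strand setting and the treatment of shared reads are not given in the sources used here. Of the 20 sample columns, 10 matched the labels of control and puberulic acid samples, and the other 10 were not used in any step.

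Estimated counts were rounded, filtered with filterByExpr (16266 of 30782 genes with a count were kept), scaled by TMM and tested with edgeR 4.0.16 in R 4.3.3 (quasi-likelihood fit on 10 samples, 5 per group, Benjamini-Hochberg adjustment, call under 0.05). Standard errors were taken from the F statistic, whose square root is the ratio of a log2 fold change to its error. Symbols were matched for 51344 of 55822 identifiers, which hold 99.3% of the counts. Depth was 18409940 to 22725111 counts in controls and 19897614 to 24705953 with puberulic acid. No columns held identical values. The scripts were checked on counts simulated from the controls, with few genes changed and rises and falls balanced. That check does not cover a shift as wide as the one between these groups, nor the choice of scaling. Promoters came from RefSeq on GRCm38.p6.

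The members and gene lists were chosen with earlier results of these data known. Beside the 7 members, the genes named were 17 set genes, up to 3 called genes per list and direction with the largest change and a mean of at least 1 CPM, and the 5 genes most like the members among those of at least 5 CPM. Some of these genes are not reported here, though list counts include them. Alternatives were other scalings (RLE, upper quartile, total counts), no filter, 1 CPM in 5 samples, a robust fit, the replicate number as a block, a fit without mitochondrial and the 10 most abundant genes, DESeq2 1.42.0, each sample left out, and, added after seeing the data, puberulic acid replicates 1 and 3 left out together. The shorter sterol letters were also added after seeing the data.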

Additional observations from a re-analysis of the deposited data

Results flagged for a closer look

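In 17 of 102 groups of 5 values searched, 1 sample lay far from the other 4, its gap being over 0.71 of the group's range. For independent, normally distributed values this limit flags about 1 in 20 groups, or 5.1 of 102. The groups here come from the same libraries, so 1 odd library can flag many, and 17 beside 5.1 is not a test. Among the members, control replicate 1 was low for Srebf2, at 79.1 CPM against 87.9 to 90.3 CPM (gap 0.788 of the range), and puberulic acid replicate 2 was low for Fdps, at 27.2 CPM against 34.9 to 37.2 CPM (0.77).

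Puberulic acid replicate 1 was high for Cyp51 at 124 CPM against 37.4 to 62.0 CPM (0.715) and Lipa at 114 against 75.1 to 83.8 CPM (0.776). It was also high for Nus1 at 203 against 151 to 159.6 CPM (0.829) and Osbp at 65.3 against 47.9 to 52.6 CPM (0.729). Its summed proximal tubule markers were 7532 against 5497 to 5793 CPM (0.855) and its loop, distal tubule and collecting duct markers 6808 against 3371 to 4324 CPM (0.723). Puberulic acid replicate 3 was high for Fasn at 111 against 37.9 to 52.2 CPM (0.806), for Scd1 at 402 against 171 to 192 CPM (0.91) and for the summed hepatocyte, adipocyte and adrenal markers at 229 against 22.2 to 31.1 CPM (0.957).

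Control replicate 1 was high for Ch25h at 2.11 against 0.779 to 0.872 CPM (0.93). Control replicate 4 was high for Abcg1 at 12.5 against 6.27 to 7.93 CPM (0.732) and for Msmo1 at 30.8 against 23.8 to 25.6 CPM (0.743). Control replicate 5 was low for Acss2 at 244 against 280.3 to 294 CPM (0.729) and high for Cyp27a1 at 43.5 against 34.5 to 36.5 CPM (0.781). The mitochondrial share of counts in puberulic acid replicate 5 was 10.5% against 13.2% to 13.8% (0.806).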

How the results depend on the processing

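Hmgcs1, Idi1 and Fdps kept their direction and call under all 20 alternatives, with log2 fold changes of -2.10 to -1.44, -1.87 to -1.13 and 0.84 to 1.44. Total counts gave 9179 genes higher and 2526 lower, and log2 fold changes of 0.76 for Sqle, 0.64 for Srebf2, 0.61 for Lss and -0.32 for Insig1. They called 4 members higher, 7 other synthesis genes higher, 4 SREBP machinery genes higher and 1 lower, 1 uptake gene lower, 4 efflux genes lower, 5 fatty acid genes higher and 6 isoprenoid genes higher. Among genes named in the text they turned the sign of Dhcr7 (0.25), Mbtps1 (0.09), Osbp (0.15), Srebf1 (0.43), Lbr (0.09), Fnta (0.35) and Mvk (0.38). Upper-quartile scaling called 2 members higher, with Srebf2 at 0.22, and turned Srebf1 to 0.02. Without puberulic acid replicates 1 and 3, 1 other synthesis gene and 0 fatty acid genes were called higher by edgeR, Lss was at -0.23 and Scd1 at -0.02. With each sample left out, 10104 to 11108 genes were called, 1 to 2 members and 1 to 2 other synthesis genes were higher, and 0 to 1 fatty acid gene was higher. In these fits Sqle ran from 0.12 to 0.42 and Lss from -0.15 to 0.28, and the causes were not tested. Replicate numbers name different samples, and same-numbered pairs correlated by -0.172 to 0.039. With the number as a replicate block 10325 genes were called against 10622, and among members and named genes only the call of Fasn changed (-0.65, edgeR adjusted p = 0.0257). The planned fits for the supplement lots were not run. Depth limits genes such as Idi2, under 0.5 CPM in every library, where 3 counts are 0.0964 to 0.195 CPM.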

Other observations

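Genes that use the isoprenoids made by Fdps and Ggps1 changed in both directions with puberulic acid. Of 13 tested by edgeR, 7 were called lower, 2 higher and 4 not called, with a median log2 fold change of -0.38 against 0.05 for all genes, of which 31.1% were lower and 34.2% higher. With total counts 6 were lower and 6 higher, where 15.5% and 56.4% of all genes were, with a median of 0.13 against 0.56 for all genes. Nus1, a subunit of the enzyme that makes dolichol for protein glycosylation, fell 2.25-fold, from 372 ± 51.6 to 165 ± 21.7 CPM (SD, n = 5 each; edgeR adjusted p = 4.26e-06). Pdss2, a subunit of the synthase of the coenzyme Q side chain, fell 2.68-fold, from 21.1 ± 2.12 to 7.89 ± 1.29 CPM (SD, n = 5 each; edgeR adjusted p = 2.14e-06).

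The subunits of 1 enzyme that attaches isoprenoids to proteins moved in opposite directions. Rabggta, the alpha subunit of the transferase that modifies Rab proteins, fell 2.23-fold (edgeR adjusted p = 4.65e-06), while its beta subunit Rabggtb rose 1.48-fold, from 43.9 ± 2.54 to 64.9 ± 3.90 CPM (SD, n = 5 each; edgeR adjusted p = 3.28e-05). Fntb, the beta subunit of farnesyltransferase, rose 1.83-fold (edgeR adjusted p = 0.000443), and the alpha subunit Fnta, named after its values were seen, had a log2 fold change of -0.15 (edgeR adjusted p = 0.133). With total counts the fall of Rabggta and the rises of Rabggtb and Fntb were still called, and Fnta turned to 0.35 and was called higher (edgeR adjusted p = 0.00431).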
